A study of Homo sapiens with 6 samples.

Results

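The NEDD4 family of ubiquitin ligases was examined in 8505C cells, a human anaplastic thyroid cancer (ATC) cell line, with and without knockdown of NUF2, a kinetochore protein of the NDC80 complex. The family holds 9 genes, NEDD4, NEDD4L, ITCH, WWP1, WWP2, SMURF1, SMURF2, HECW1 and HECW2, and all 9 were among the 32985 genes of the deposited table. The family was chosen by the FPKM and counts of NEDD4, which were lower after the knockdown in these same libraries, so the difference in NEDD4 is given as a description, with no test. Poly(A) RNA was sequenced from 3 libraries of cells given a control siRNA (siCtrl, genotype WT in the labels) and 3 libraries of cells given a NUF2 siRNA (siNUF2, genotype NUF2 knockdown), all collected at 24 h. The design has 1 cell line and, in the study's methods, 1 siRNA sequence against NUF2, so an effect of the loss of NUF2 and an effect of that siRNA cannot be told apart. No label says that libraries of a group came from separate cultures, so the p-values measure only the spread between these libraries, which may be technical.

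Ubiquitin is handed from an E1 enzyme to an E2 and then, through an E3 ligase, to a substrate. NEDD4 family members are E3 ligases with a C2 domain that binds membranes, WW domains that grip PPxY motifs of substrates and adaptors, and a HECT domain that takes the ubiquitin from the E2 onto its own cysteine before passing it on. They are known for marking receptors, channels and signalling proteins for endocytosis and degradation, among them the epithelial sodium channel, growth factor receptors and the SMAD proteins of TGF-β signalling. NEDD4, ITCH, WWP1, WWP2, SMURF1, SMURF2 and NEDD4L are broadly expressed, while HECW1 and HECW2 are best known from nervous tissue.

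The sequence of the NUF2 siRNA is shown because its seed, positions 2 to 8 of the antisense strand, also has matches in several family transcripts. The siRNA target was read from the NUF2 transcript in GENCODE release 44, at chr1:163336814-163336834 of GRCh38 on the plus strand, in the coding sequence of exon 6 of 14. Capitals mark the seed in the antisense strand and the 7 bases that pair with it in the mRNA.
NUF2 target, mRNA sense: gccgtgaaacgtaTATGGAAt
NUF2 siRNA, antisense strand: aUUCCAUAuacguuucacggc

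The 7-base word TATGGAA was then searched on the sense strand of the canonical transcript of each member. It was in the 3′ UTR of 5 of 9 members, NEDD4L, ITCH, SMURF1, SMURF2 and HECW1. HECW1 and HECW2 were not among the tested genes, to which the percentages below refer. Of the 10178 tested genes with a canonical 3′ UTR of at least 50 bases, 15.1% held it there, and 28.2% of the 2246 whose 3′ UTR was 2500 to 5500 bases long did. NEDD4 had no match in its 3′ UTR of 2978 bases and 1 match in its coding sequence, which was the case for 14.8% of the tested genes. With the longest annotated 3′ UTR of each gene in place of the canonical one, 6 of 9 members held the word. So did 18.3% of tested genes, and 28.5% of the 2970 whose longest 3′ UTR was 2500 to 5500 bases long. NEDD4 was added because the same letters lie in the 3′ UTR of a transcript with only 243 coding bases. The longest 3′ UTR of SMURF2 also came from a short coding transcript, with 165 coding bases. The 3′ UTR of ITCH, 3982 bases long, held 3 copies. Of the same 10178 genes, 0.442% had 3 or more copies, and 0.534% of those in the length range did. The canonical transcripts of WWP1, WWP2 and HECW2 held no match in either region.

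The windows of 25 bases around the matches in the expressed members are given below from GENCODE release 44 on GRCh38, in the sense of the mRNA, with the word in capitals. They are shown so that the letters around each match can be read. NEDD4 is described without a test, ITCH passed the test across genes, and NEDD4L, SMURF1 and SMURF2 did not. Not passing does not show that a member was unchanged.
NEDD4, coding, exon 21 of 29, chr15:55840449-55840473, minus strand: ataacccttcatgaTATGGAAtctg
ITCH, 3′ UTR, exon 25 of 25, chr20:34509401-34509425, plus strand: agaaccctgttccaTATGGAAaaaa
ITCH, 3′ UTR, exon 25 of 25, chr20:34510073-34510097, plus strand: ctatttaatattttTATGGAAgaag
ITCH, 3′ UTR, exon 25 of 25, chr20:34510314-34510338, plus strand: gtccaaactgaacaTATGGAAatag
NEDD4L, 3′ UTR, exon 31 of 31, chr18:58401503-58401527, plus strand: atttaataaagaatTATGGAAgctg
SMURF1, 3′ UTR, exon 18 of 18, chr7:99027532-99027556, minus strand: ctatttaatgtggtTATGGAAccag
SMURF2, coding, exon 4 of 19, chr17:64593528-64593552, minus strand: agttacgatcagtgTATGGAAtcac
SMURF2, 3′ UTR, exon 19 of 19, chr17:64543876-64543900, minus strand: agcatcttgaaatgTATGGAAgtgg

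Counted over all positions of the antisense strand, the match ran over 9 bases in the NEDD4 window, from position 1 to position 9, and over 8 bases in the first and last ITCH windows, from position 2 to position 9. In the coding window of SMURF2 it also ran over 8 bases, from position 1 to position 8, and in the other 4 windows shown it was limited to the 7 bases of the seed. A match of letters is a description of sequence, and whether the siRNA bound any of these transcripts was not tested.

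**Figure D1:**
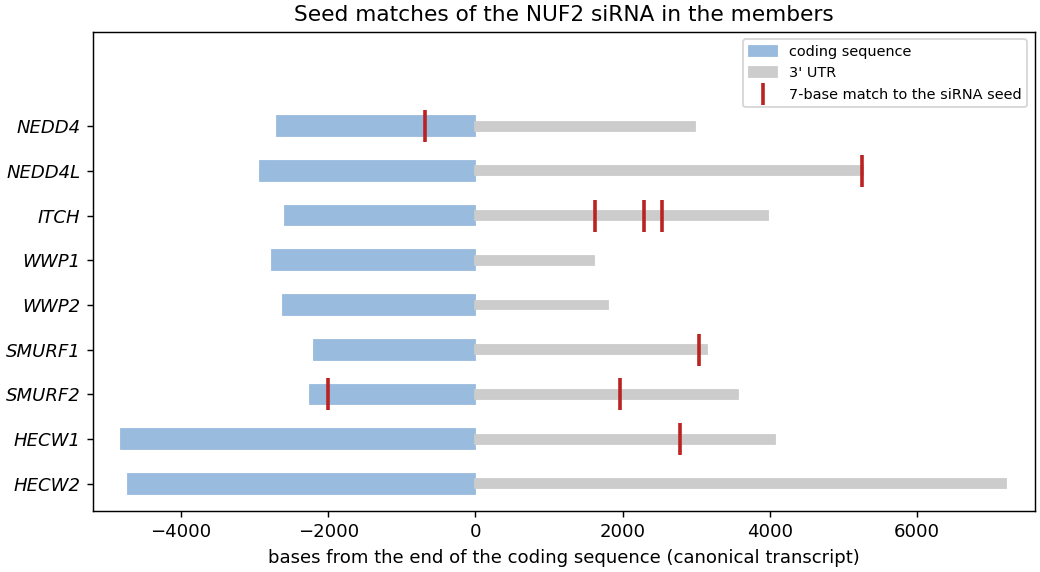
Canonical transcripts of the 9 members, drawn in bases from the end of the coding sequence, with the coding sequence to the left of 0, the 3′ UTR to the right and a red mark for each 7-base match to the siRNA seed. ITCH carries 3 marks in its 3′ UTR, and the single mark of NEDD4 lies in its coding sequence.

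The knockdown was present in every siNUF2 library. NUF2 was at 14.8, 14.5 and 12.2 FPKM (fragments per kilobase of transcript, scaled to the mapped fragments of the library) in siCtrl and at 1.53, 2.05 and 1.56 in siNUF2. It fell by 2.99 on the log2 scale (SE 0.17, adjusted p = 5.1e-04, edgeR). Total counts per library were between 61257859 and 69755291, and the mitochondrial share of them was 5.46% to 6.70% in siCtrl and 6.54% to 7.06% in siNUF2. It was higher in siNUF2 in 3 of 3 replicate numbers, and its part in the results was not tested. Among thyroid follicular markers only NKX2-1, at 14.6 to 21.5 FPKM, averaged 1 FPKM or more. TG, FOXE1 and SLC5A5 were near 0. Mesenchymal markers were high, with 4 of 4 at 1 FPKM or more. Of the 5 epithelial markers, KRT8 (72.0 to 99.2 FPKM), KRT18 (137 to 205 FPKM) and KRT19 (5.37 to 12.4 FPKM) were expressed, while CDH1 and EPCAM were near 0. Leukocyte markers summed to 2.00 to 10.2 FPKM in siCtrl and 1.33 to 2.07 in siNUF2. LYZ was at 7.47 FPKM in siCtrl 1, at 0.434 in siNUF2 1 and at 0 in the other 4 libraries. PTPRC was also highest in siCtrl 1 and siNUF2 1, at 0.518 and 0.147 FPKM. CD14 differed, at 1.99 to 2.23 FPKM in siCtrl and 0.703, 2.05 and 1.53 in siNUF2, where siNUF2 1 was lowest. The fibroblast marker COL1A2 was at 0 in siCtrl 1 and siNUF2 1, and at 0.701 to 1.15 FPKM elsewhere. CDH5, the only endothelial marker that averaged 1 FPKM or more, was highest in siCtrl 2 and siNUF2 2, at 1.87 and 2.72. Fewer cells of a kind and less RNA per cell cannot be told apart in such bulk libraries.

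In the test across genes, 7 of the 9 members passed the filter of a mean of 1 FPKM, and HECW1 and HECW2 did not. In siCtrl cells SMURF2 had the highest level, followed by NEDD4, ITCH and WWP1, and the ranges of neighbours in this order did not overlap. WWP1, NEDD4L, SMURF1 and WWP2 followed, each with a range that overlapped its neighbour's. In siNUF2 cells SMURF2 again stood above the rest, but NEDD4 came after WWP1, and the ranges of neighbours from WWP1 down to SMURF1 overlapped.

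NEDD4 (ENSG00000069869, chr15:55826922-55993660, minus strand) is the founding member, known for acting on growth factor receptors such as IGF1R. It was at 13.3, 13.98 and 16.4 FPKM in the siCtrl libraries and at 5.86, 5.33 and 7.30 in the siNUF2 libraries. The highest siNUF2 library was below the lowest siCtrl library. The means were 14.6 ± 1.63 and 6.16 ± 1.02 FPKM (SD, n = 3), so that siNUF2 cells held 42.3% of the control level. The log2 fold change was -1.22 (SE 0.14), with a 95% interval from -1.55 to -0.89 that is given as a description and no test. It ranked 56 from the lowest among the 11725 tested genes. Each library held 3906 to 11127 counts of NEDD4, and no other gene of the table overlapped it. Without siCtrl 1 the log2 fold change was -1.28, and without siNUF2 1 it was -1.18.

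ITCH (ENSG00000078747, chr20:34363241-34540748, plus strand), a ligase known for acting on JUN proteins and p63 and p73, was the other member that was lower in every siNUF2 library. Its levels were 7.08, 9.46 and 6.80 FPKM in siCtrl and 4.16, 5.16 and 4.68 in siNUF2, with no overlap between the groups. The means were 7.78 ± 1.46 and 4.67 ± 0.497 FPKM (SD, n = 3), or 60.0% of control. ITCH fell by 0.72 on the log2 scale (SE 0.15, 95% interval -1.06 to -0.37, adjusted p = 0.0417, edgeR). The call was close to the threshold: leaving out any 1 of the 6 libraries gave adjusted p-values from 0.0666 to 0.156, with log2 fold changes from -0.80 to -0.55. Without siCtrl 1, the library highest in LYZ, ITCH was at -0.78 (adjusted p = 0.0863, edgeR). Without siNUF2 1, the next in LYZ, it was at -0.63 (adjusted p = 0.156, edgeR). The call was lost whichever library was left out, so these fits say nothing about LYZ. With the replicate number as a block the adjusted p was 0.00274. The table places 5 other genes within the span of ITCH, of which DYNLRB1, on the same strand, was the only one above 1 FPKM, at a mean of 50.4.

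Of the 6 members other than NEDD4 that were tested, ITCH was the only one to pass. Across all genes tested, 468 of 11725 passed (3.99%), with 289 lower (2.46%) and 179 higher (1.53%) in siNUF2. With the replicate block 1705 genes passed (14.5%), and ITCH was again the only one of the 6. With DESeq2 (8.29% of all tested genes) ITCH was again the only one, and with limma on log2(FPKM + 1) (3.27%) 0 of the 6 passed. The groups did not overlap for 2 of these 6 members, ITCH and WWP2, nor for 2801 of all tested genes (23.9%). The median log2 fold change of the 6 members was -0.15, and that of all genes tested was 0.01.

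**Figure D2:**
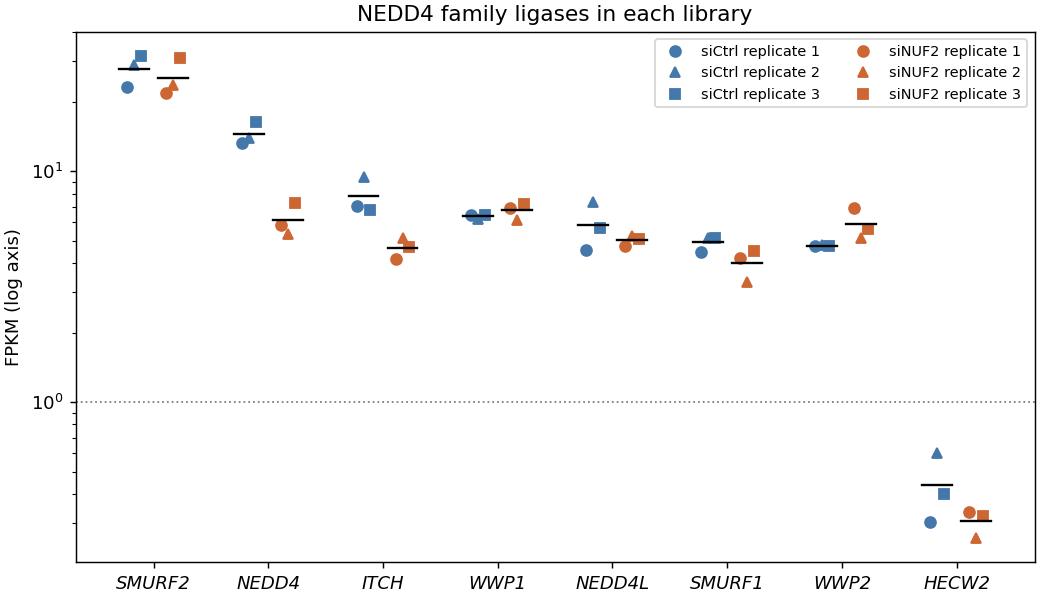
FPKM of 8 members on a log axis, with a point for each library (siCtrl and siNUF2, 3 replicates each) and a dotted line at the filter of 1 FPKM. The siNUF2 points lie below all siCtrl points for NEDD4 and ITCH and above them for WWP2, and HECW1 is not drawn because 2 of its libraries are at 0.

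WWP1 and WWP2 are close relatives that share the C2, WW and HECT layout. WWP2 (ENSG00000198373, chr16:69762306-69941741, plus strand) was at 4.73, 4.81 and 4.73 FPKM in siCtrl and at 6.94, 5.16 and 5.63 in siNUF2. All siNUF2 libraries were above all siCtrl libraries, but they were spread more widely, with an SD of 0.921 against 0.0469. Its log2 fold change of 0.33 (SE 0.12, 95% interval 0.06 to 0.60) did not pass (adjusted p = 0.195, edgeR), nor did it with the replicate block (adjusted p = 0.0678). WWP1 (ENSG00000123124, chr8:86342547-86468503, plus strand) was at 6.46, 6.21 and 6.46 FPKM in siCtrl and 6.93, 6.18 and 7.25 in siNUF2. The groups overlapped, and the log2 fold change was 0.11 (SE 0.10, 95% interval -0.12 to 0.34, adjusted p = 0.637). RMDN1 overlaps WWP1 on the other strand at 7.57 FPKM, and whether counting used strand is not given in the sources used here.

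NEDD4L (ENSG00000049759, chr18:58044226-58401540, plus strand) is the closest relative of NEDD4 and is known for removing the epithelial sodium channel from the cell surface. Its levels were 4.55, 7.35 and 5.69 FPKM in siCtrl and 4.73, 5.27 and 5.10 in siNUF2. The siCtrl libraries alone spanned the whole siNUF2 range, and the log2 fold change of -0.20 (SE 0.17, 95% interval -0.58 to 0.18) did not pass (adjusted p = 0.603, edgeR). It was -0.01 without siCtrl 2, the highest control library, and -0.35 without siCtrl 1, the lowest.

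SMURF1 and SMURF2 are known for acting on SMAD proteins and, through SMAD7, on TGF-β receptors. SMURF1 (ENSG00000198742, chr7:99027438-99144100, minus strand) was at 4.46, 5.15 and 5.16 FPKM in siCtrl and 4.20, 3.31 and 4.49 in siNUF2. The groups overlapped by a small margin, and the log2 fold change was -0.28 (SE 0.14, 95% interval -0.61 to 0.05, adjusted p = 0.368, edgeR). SMURF2 (ENSG00000108854, chr17:64542282-64662307, minus strand), the most abundant member, was at 23.1, 28.8 and 31.5 FPKM in siCtrl and 21.8, 23.7 and 30.8 in siNUF2. The groups overlapped almost fully, with a log2 fold change of -0.10 (SE 0.16, 95% interval -0.48 to 0.27, adjusted p = 0.802, edgeR). Without siNUF2 1 the value was 0.00 in the fit without the block. The p-values of NEDD4L, SMURF1 and SMURF2 do not show equal levels in the groups, and their intervals reach down to -0.58, -0.61 and -0.48. TRRAP overlaps SMURF1 at 2.78 FPKM and CEP95 overlaps SMURF2 at 5.90 FPKM, each on the other strand.

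**Figure D3:**
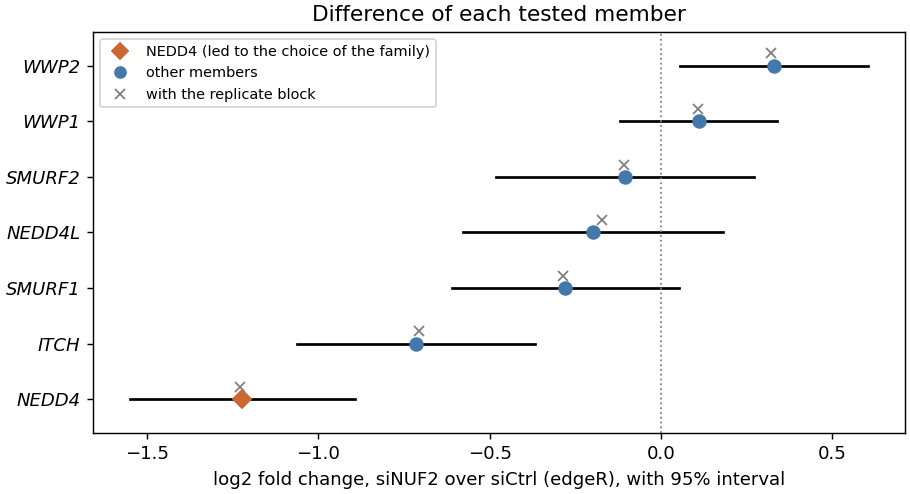
Log2 fold change of each tested member, siNUF2 over siCtrl, from edgeR, with its 95% interval and, as a cross, the value with the replicate block. The intervals are not adjusted for the number of genes tested. That of NEDD4, which led to the choice of the family, is a description and no test, from -1.55 to -0.89. The interval of ITCH runs from -1.06 to -0.37. That of WWP2, which did not pass (adjusted p = 0.195, edgeR), runs from 0.06 to 0.60, and those of the other 4 members cross 0.

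HECW2 (ENSG00000138411, chr2:196189099-196593684, minus strand), known for acting on p73, was at 0.303, 0.602 and 0.400 FPKM in siCtrl and 0.333, 0.258 and 0.321 in siNUF2. It held 495 to 1156 counts per library, and its groups overlapped. Tested without the filter, it was at -0.49 on the log2 scale (adjusted p = 0.596, edgeR). HECW1 (ENSG00000002746, chr7:43112629-43562052, plus strand) was the lowest member, with 4, 8 and 0 counts in siCtrl and 0, 7 and 2 in siNUF2, and it did not pass without the filter either (adjusted p = 0.975, edgeR).

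FPKM are scaled by transcript length, so levels of the members can be added. The 9 members summed to 72.5 ± 7.38 FPKM in siCtrl and 58.3 ± 6.32 in siNUF2 (SD, n = 3), with ranges of 64.0 to 77.1 and 54.4 to 65.6 that overlapped. Without NEDD4 and ITCH the sums were 50.1 ± 5.70 and 47.5 ± 5.34 FPKM. Both members were lower in siNUF2, so leaving them out had to make the difference smaller. NEDD4 made up 20.1% ± 1.59 of the family's FPKM in siCtrl and 10.5% ± 0.677 in siNUF2. The mean share of ITCH went from 10.8% to 8.06% and that of SMURF2 from 38.2% to 43.5%. That of WWP1 went from 8.87% to 11.7% and that of WWP2 from 6.61% to 10.2%. Shares of a sum are tied, so a lower NEDD4 raises those of the other members. The mean FPKM of SMURF2 went from 27.8 to 25.5, while that of WWP1 went from 6.38 to 6.78 and that of WWP2 from 4.76 to 5.91. Exact permutation tests of 3 libraries against 3 cannot give a two-sided p under 0.1, and none is given for these sums.

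Libraries with the same replicate number in both groups deviated together across genes, so the ratio was also taken within each number. The log2 ratio of NEDD4 was -1.19, -1.39 and -1.17 for the numbers 1, 2 and 3. That of ITCH was -0.77, -0.88 and -0.54. The ratio of WWP2 was above 0 in each number, at 0.55, 0.10 and 0.25, and that of SMURF1 was below 0 in each, at -0.09, -0.64 and -0.20. The ratio of SMURF2 was also below 0 in each number, at -0.08, -0.28 and -0.03. The number 2 gave the lowest ratio in all 8 members with counts in every library, against 41.3% of the 11686 genes compared. This pattern was picked after its values were seen, and siCtrl 2 was the highest control library for ITCH, NEDD4L, WWP2 and HECW2.

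**Figure D4:**
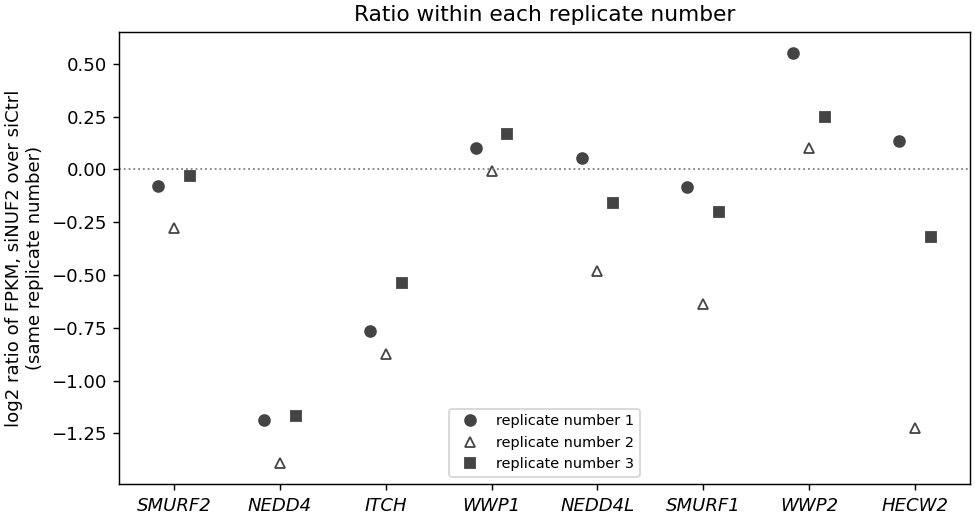
Log2 ratio of FPKM, siNUF2 over siCtrl, between libraries with the same replicate number, for 8 members. The 3 ratios of NEDD4 lie between -1.39 and -1.17 and those of ITCH between -0.88 and -0.54, and the open triangle of the number 2 is the lowest in every member.

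The enzymes and partners around the family were followed in 6 lists, of which 118 genes were tested, and 2 passed, 1 higher and 1 lower, where 3.99% of all tested genes did. With the replicate block 20 of the 118 passed, where 14.5% of all tested genes did. An unadjusted p under 0.05 was found for 18.2% of all tested genes, and DESeq2 called 8.29% of them, which is the background for the counts by list given next. With limma the ESCRT list had 1 call and the other 5 lists had 0. Both calls lost the threshold in every fit that left out a library. List medians were between -0.08 and 0.06 on the log2 scale, close to the 0.01 of all genes tested.

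Adaptors and regulators, which bring substrates to the WW domains or hold the ligases inactive, had 0 of 24 tested genes past the threshold with edgeR, 2 with DESeq2 and 4 at an unadjusted p under 0.05. The highest and the lowest log2 fold change were those of ARRB2, a β-arrestin, at 0.39 (adjusted p = 0.321, edgeR) and of SPART, a protein with a PPxY motif that recruits ITCH and WWP1 to lipid droplets, at -0.48 (adjusted p = 0.134). The adaptors NDFIP1 and NDFIP2, which activate several members on membranes and are named here after their values were seen, were at 0.21 and -0.45 (adjusted p = 0.233 and 0.0957, edgeR). The groups did not overlap for either of them, nor for 23.9% of all tested genes. With the block, ARRB2 and SPART had adjusted p-values of 0.0246 and 0.00843.

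Reported substrates had 0 of 25 tested genes past the threshold with edgeR, 1 with DESeq2 and 5 at an unadjusted p under 0.05. The ligases act on the substrate proteins, while only RNA was measured in these libraries. Whether the ligases acted more or less on any substrate was therefore not tested. IGF1R, a growth factor receptor that NEDD4 acts on together with the adaptor GRB10, was at 3.97, 5.24 and 5.80 FPKM in siCtrl and 6.51, 6.67 and 7.48 in siNUF2. All siNUF2 libraries were above the siCtrl libraries, where 23.9% of all tested genes had groups that did not overlap in either direction. The log2 fold change of IGF1R, 0.48, had an adjusted p of 0.137 with edgeR and of 0.0122 with the block. CDKN1B, the cell cycle inhibitor p27, had the lowest value at -0.62 (adjusted p = 0.184, edgeR; 0.0133 with the block), with means of 9.99 ± 2.00 and 6.39 ± 1.59 FPKM (SD, n = 3).

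Other HECT ligases had 0 of 18 tested genes past the threshold with edgeR, 1 with DESeq2 and 3 at an unadjusted p under 0.05. UBE3A, the ligase that is lost in Angelman syndrome, was highest at 0.41 (adjusted p = 0.0957, edgeR; 0.0244 with the block). HERC3 was lowest at -0.35 (SE 0.78, adjusted p = 0.869). That value rested on siNUF2 2, at 0.123 FPKM against 1.38 to 2.32 in the other 5 libraries. Of 14 tested E1 and E2 enzymes 0 passed with edgeR, 1 passed with DESeq2, and 1 had an unadjusted p under 0.05. UBE2D2, an E2 that works with HECT ligases, was lowest at -0.40 (adjusted p = 0.0911, edgeR; 0.0113 with the block), and UBE2E2 was highest at 0.21 (adjusted p = 0.432).

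Among the deubiquitinases 1 of 10 passed with edgeR and 1 with DESeq2, and 3 had an unadjusted p under 0.05. USP15, known for removing ubiquitin from TGF-β receptors and SMADs, fell by 0.68 on the log2 scale (SE 0.15, adjusted p = 0.0449, edgeR), from 2.27 ± 0.307 to 1.39 ± 0.198 FPKM (SD, n = 3). Leaving out 1 library gave adjusted p-values up to 0.130. USP4 was highest at 0.14 (adjusted p = 0.589). Of 27 genes of the ESCRT machinery, which sorts ubiquitinated cargo into multivesicular bodies, 1 passed with edgeR. With DESeq2 4 passed, and 7 had an unadjusted p under 0.05. VPS25, a subunit of ESCRT-II, rose by 0.44 on the log2 scale (SE 0.09, adjusted p = 0.0399, edgeR), from 22.3 ± 1.07 to 29.8 ± 1.09 FPKM, with adjusted p-values up to 0.141 when a library was left out. VPS37A, a subunit of ESCRT-I, was lowest at -0.53 (adjusted p = 0.0662, edgeR; 0.0243 with the block).

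**Figure D5:**
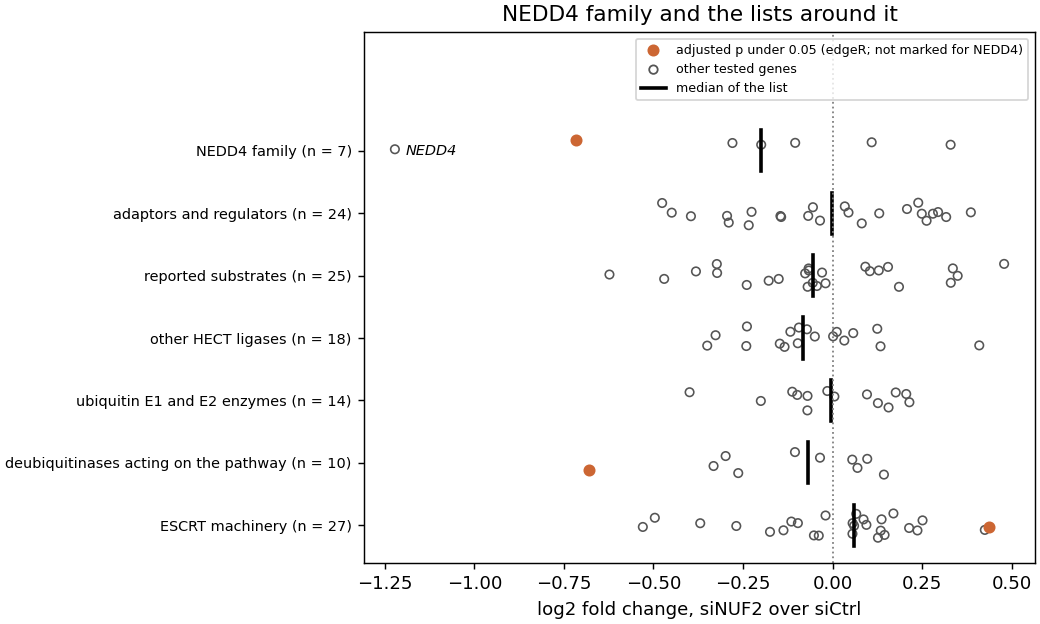
Log2 fold change of each tested gene of the NEDD4 family and of the 6 lists, siNUF2 over siCtrl, with a filled point for an adjusted p under 0.05 (edgeR) and a bar at the list's median. NEDD4, left unmarked because it led to the choice, lies at -1.22, and ITCH, USP15 and VPS25 are the filled points.

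The genes with the pattern most like NEDD4 were found by the root mean square difference of log2(FPKM + 1), centred on each gene's mean, over the 6 libraries. They were MAGT1, a subunit of the oligosaccharyltransferase complex that is also described as a magnesium transporter (0.0528), NUP58, a nucleoporin (0.0750), C5orf15 (0.0887), ZMPSTE24, the protease that processes prelamin A (0.0914), and DYNC1LI2, a light intermediate chain of dynein (0.0943). Because they were matched to NEDD4, their levels are given with no test. MAGT1 averaged 13.3 FPKM in siCtrl and 5.75 in siNUF2, and the means of NUP58 were 5.49 and 2.21. Those of C5orf15 were 25.6 and 12.4, those of ZMPSTE24 19.99 and 8.46, and those of DYNC1LI2 16.0 and 6.86. The canonical 3′ UTR of 4 of these 5 held the 7-base word of the siRNA seed, C5orf15 being the exception. Of all tested genes 15.1% did, and 28.2% of those with a 3′ UTR of 2500 to 5500 bases. The 3′ UTRs of NUP58, ZMPSTE24 and C5orf15 were shorter than that range, at 2290, 1514 and 1352 bases. The 5 genes were picked for a pattern like that of NEDD4 in these same libraries, and whether the siRNA bound their transcripts was not tested. The members nearest to NEDD4 in this ranking of all tested genes were ITCH at place 342 and SMURF1 at place 1099, and WWP2 was last at place 10052.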

How the data were processed

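RNA-seq of 6 libraries was used, with groups and replicate numbers taken from the labels. Per the labels and the study's methods, the authors used fastp for read quality, HISAT2 for alignment (build GRCh38) and StringTie for expression levels. The authors deposited FPKM, which correct for library size and transcript length, and raw whole-number counts per gene. The counting tool, strand setting and annotation release are not given in the sources used here. All columns of values per library were used.

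Counts of the 11725 genes that averaged 1 FPKM or more over the libraries were tested with edgeR's quasi-likelihood test (TMM, Benjamini-Hochberg adjustment over all tested genes, threshold 0.05), without covariates. Percentages of genes called and list medians are over the same genes. Alternatives were DESeq2, its size factors in edgeR, limma on log2(FPKM + 1) and log2(FPKM + 0.1), no filter, a filter at 5 FPKM, the replicate block and leaving out each library. Members and lists were chosen with earlier results of these data known. Named are all members, NUF2, in each list the genes past the threshold with the highest and the lowest log2 fold change, the 5 genes nearest to NEDD4, and markers; others are marked.

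Libraries with the same number correlated in their deviations from the group means (0.418 to 0.539, against -0.316 to -0.125 for other numbers), so the numbers pair the libraries, although the labels do not say what a number shares. No library was a copy of another, as replicates had a chi-square of 60.9 to 86.8 for each degree of freedom. On simulated data with 200 genes changed by a fold of 2 among 11725, the edgeR step recovered 157 (78.5%) with 8 false calls. The simulation gave every gene the same dispersion and no deviation shared by replicate number, so these rates need not hold for the libraries. Transcripts and UTRs came from GENCODE release 44, whose 3′ UTRs here start with the stop codon. Its gene bounds differ from those of the deposited table for ITCH, WWP1, WWP2, SMURF1 and HECW1. The tools were Python 3.11.15 with matplotlib 3.10.9, pandas 2.3.3, scipy 1.17.1 and numpy 2.4.6, and R 4.3.3 with DESeq2 1.42.0, limma 3.58.1 and edgeR 4.0.16.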

Additional observations from a re-analysis of the deposited data

How the results depend on the processing

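The log2 fold change of NEDD4 was between -1.36 and -1.12 in the 13 alternatives. ITCH kept its direction in all of them and its call with DESeq2, with DESeq2's size factors, with a filter at 5 FPKM and with the replicate block. It missed the threshold with limma on log2(FPKM + 1) at -0.62 and on log2(FPKM + 0.1) at -0.71 (adjusted p = 0.0578 and 0.0561), with no filter at -0.71 (adjusted p = 0.121), and when any 1 library was left out, at -0.80 to -0.55. Among the 6 members tested beside NEDD4, 0 were therefore called with limma at either pseudocount, with no filter and without any 1 library. SMURF2 ranged from -0.27 to 0.0018 when 1 library was left out, the highest without siNUF2 1. The count of all genes called was 972 with DESeq2, 188 with no filter, 1705 with the replicate block, which pairs libraries by number, and 124 to 251 without 1 library, the lowest without siNUF2 1. Of the 118 list genes, 10 were called with DESeq2, 20 with the replicate block, 1 with limma at either pseudocount, 1 with a filter at 5 FPKM, 0 with no filter and 0 without any 1 library. The block changed no call of a member. The cause of these shifts was not tested, beyond the smaller number of libraries when 1 is left out. HECW1 and HECW2, left out by the filter at 1 FPKM, did not pass without it. Intervals cover the spread between 3 libraries a group only.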
